A study of Homo sapiens with 9 samples.

Results

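The NR4A nuclear receptors and genes that limit or carry out the cyclic AMP response were followed in human trabecular meshwork cells given a glucocorticoid or a sympathetic transmitter. The 10 genes were chosen by name, without a threshold on any value: NR4A1, NR4A2, NR4A3, CREM, SIK1, PPARGC1A, NFIL3, INHBA, STC1 and BDNF. Earlier results of these data were known when they were chosen, so the set is not independent of the data. All 10 are among the 37247 genes of both deposited tables, and all 10 passed the filter on low counts in each comparison. RNA sequencing was done on an immortalized trabecular meshwork line, which derives from the filter that drains aqueous humour from the eye. Cells on collagen-coated plates were kept without serum for 24 h before 1 µM norepinephrine (NE), 0.1 µM dexamethasone (DEX) or DMSO alone, the vehicle, was added, and all were collected at 6 h. All groups share the same line, the serum-free period and DMSO as the reference, and no group carries a genetic change beyond the immortalization. The labels list 9 samples, 3 in each of 3 groups, as replicates of 1 line and do not say whether they came from separate cultures, so the p-values measure the spread between these libraries, which may be technical.

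Cyclic AMP activates protein kinase A, which phosphorylates the transcription factor CREB, and CREB switches on genes whose promoters hold a cAMP response element. The NR4A receptors are orphan nuclear receptors that act as early response genes of this and other pathways. CREM and SIK1 are feedback genes: the CREM locus makes a short repressor of CREB-driven transcription, and SIK1 is a kinase that holds the CREB co-activators of the CRTC family out of the nucleus. NE acts on adrenergic receptors, of which the beta class raises cyclic AMP, while DEX binds the glucocorticoid receptor, a ligand-activated transcription factor.

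The deposited values are expected counts in 2 tables. The DEX table holds 3 vehicle and 3 DEX libraries of 19326830 to 27337259 counts each. The NE table holds 3 other vehicle columns, named for DMSO and not matched to a labelled sample, and 3 NE libraries of 31104094 to 36216506 counts each. Each treatment was therefore compared with the vehicle of its own table. Vehicle library 1 of the NE table stood apart: the scatter of its gene counts against the other 2 vehicle libraries was 16.0 and 19.5 times counting noise (chi-square per degree of freedom), against 2.86 between those 2 and 3.11 to 8.81 for replicate pairs in the other groups. NE results of the 10 genes, and of the list genes named, are given with and without that library. Of 12 trabecular meshwork markers, FOXC1 and TIMP3 were above 10 CPM (counts scaled to a common library total) in every group and MYOC, AQP1, ANGPTL7 and PPP1R1B were below 1 CPM in every group. Of 5 immune markers, CD3E was at 0 counts in all libraries and PTPRC, CD14 and LYZ averaged no more than 0.664, 2.12 and 0.0823 CPM in any group. CD68, a lysosomal protein that other cells also express, averaged 27.4 and 28.2 CPM in the vehicle and DEX groups of the DEX table and 67.0 and 62.8 CPM in the vehicle and NE groups of the NE table. What part this has in differences between the tables was not tested.

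Promoters bear on this gene set because CREB recognizes a fixed motif, so the windows from 250 bases before to 50 bases after each RefSeq transcription start (GRCh38.p14) were searched. RefSeq windows were given for 8 of the 10 genes, 21 windows in all, with none used for NR4A2 or STC1. The core of the cAMP response element, TGACG or its reverse complement CGTCA, lies in 8 of 21 windows (38.1%), from 6 genes, against 24.6% of 35116 windows genome-wide. Stretches that hold the core are printed for 1 start of each of the 6 genes, 5′ to 3′ on the strand of the gene, with the core in capitals. They lie at chr9:99821756-99821884 (+ strand) for NR4A3, chr21:43427233-43427368 (- strand) for SIK1, chr10:35195832-35195879 (+ strand) for an internal start of CREM, chr4:24473000-24473044 (- strand) for PPARGC1A, chr9:91424627-91424661 (- strand) for NFIL3 and chr11:27701644-27701688 (- strand) for BDNF.
NR4A3: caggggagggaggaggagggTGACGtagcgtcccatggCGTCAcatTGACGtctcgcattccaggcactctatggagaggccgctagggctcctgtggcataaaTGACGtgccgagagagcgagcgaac
SIK1: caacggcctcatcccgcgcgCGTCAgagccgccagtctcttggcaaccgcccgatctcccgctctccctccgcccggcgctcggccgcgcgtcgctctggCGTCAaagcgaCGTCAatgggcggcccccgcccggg
CREM: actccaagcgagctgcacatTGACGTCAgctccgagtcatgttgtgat
PPARGC1A: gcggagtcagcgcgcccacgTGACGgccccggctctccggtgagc
NFIL3: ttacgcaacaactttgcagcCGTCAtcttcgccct
BDNF: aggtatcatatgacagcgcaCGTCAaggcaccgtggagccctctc

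NR4A3 holds 4 cores and SIK1 holds 3, where 0.313% of all windows hold at least 4 and 1.40% at least 3. CREM has the full palindrome TGACGTCA, 50 bases before its internal start, in 2 windows that cover the same site, against 1.85% of all windows. Another CREM window holds 2 cores, at positions -178 and -68 from its start, and is not printed. The palindrome contains the core on both strands, so it counts as 2 overlapping matches. The printed starts of PPARGC1A, at 24472905, and of NFIL3, at 91424626, lie outside the gene spans given for them below. The other window of each, at a start inside its span, holds no core. BDNF holds the core in 1 of its 5 windows. The NR4A monomer motif AAAGGTCA or its reverse complement was in none of the 21 windows and in 1.22% of all windows. The short glucocorticoid receptor motif AGAACA or its reverse complement was in 2 windows, 1 of CREM and 1 of BDNF, against 14.8% of all windows. These matches describe letters in the windows and are not measured binding sites.

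NE raised 4 of the 10 genes and lowered none, whereas DEX raised 1 and lowered 2. With SIK1 summed with its near-identical copy SIK1B, NE raised 5 and lowered none, and DEX raised 2 and lowered 2. Because the genes were chosen with earlier results of these data known, the all-gene shares below give scale and do not test the set. Across all genes tested, 2.82% of 15630 were called in the NE comparison (1.48% higher, 1.34% lower) and 10.1% of 15133 in the DEX comparison (6.66% higher, 3.46% lower), at an adjusted p below 0.05 in edgeR's quasi-likelihood test. With the replicate number as a block, 9 of the 10 were called higher with NE, where 10.8% of all genes were called and 5.07% were called higher. That block takes the numbers of the NE-table vehicle columns from their names, and the pairing was inferred from these same data. All NE results with the block, here and below, rest on it. In the DEX table the replicate numbers did not pair. DEX results and differences with the block, also below, therefore carry little weight. After NE all 10 genes had their 3 NE libraries above their 3 vehicle libraries, an arrangement found in 11.1% of all genes tested, with the reverse in 9.99%. After DEX the groups did not overlap for 4 of the 10, with 3 of these lower and BDNF higher, where 15.2% of all genes were separated upwards and 13.1% downwards. The median log2 fold change of the 10 genes was 0.37 after NE and 0.05 after DEX, beside medians near 0 for all genes (-0.0031 and -0.0059). Fewer cells of a kind and less RNA per cell cannot be told apart in these bulk libraries.

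**Figure D1:**
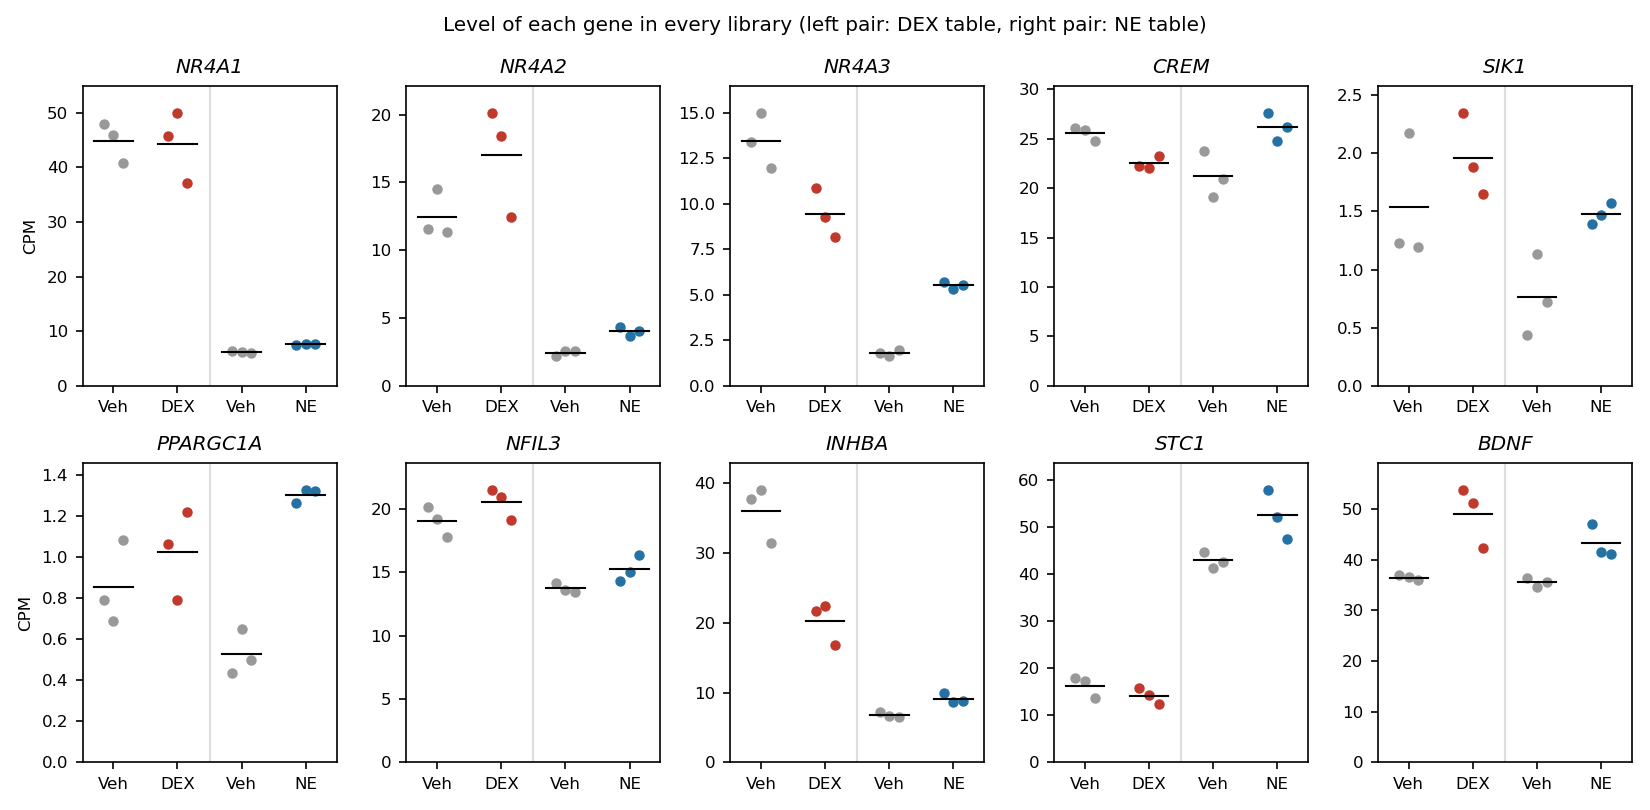
Level of each of the 10 genes in all 12 libraries, in CPM on a linear axis from 0, with a panel for each gene; points are libraries and bars are group means of 3. In each panel the vehicle and DEX libraries of the DEX table are on the left and the vehicle and NE libraries of the NE table on the right, and every NE point lies above the vehicle points beside it.

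Of the NR4A family, NR4A3 (chromosome 9, 99821855 to 99866891, + strand, GENCODE 29 on GRCh38), which encodes the receptor NOR-1, moved in opposite directions with the 2 agents. It stood at 1.83, 1.62 and 1.99 CPM in the NE-table vehicle libraries and at 5.71, 5.33 and 5.56 CPM after NE. The lowest NE library was more than 2-fold above the highest vehicle library. NE raised NR4A3 3.05-fold (log2 1.61, SE 0.11, adjusted p = 0.000332). In the DEX table it was at 13.4, 14.98 and 11.97 CPM with vehicle and at 10.9, 9.30 and 8.17 CPM with DEX, so that every DEX library was below every vehicle library. DEX lowered it 1.42-fold (log2 -0.50, SE 0.11, adjusted p = 0.00881). The difference between the DEX and NE effects, fitted over all 12 libraries, was -2.12 (log2, SE 0.17, adjusted p = 3.12e-06). The NE call held in each fit that left out 1 library, with 1.62 (adjusted p = 9.0e-05) without NE-table vehicle 1, while the DEX call ended without DEX library 2 (-0.50, adjusted p = 0.0574).

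NR4A2 (chromosome 2, 156324432 to 156342348, - strand), which encodes NURR1, rose with NE. Its levels were 2.21, 2.56 and 2.59 CPM in the NE-table vehicle libraries and 4.32, 3.70 and 4.07 CPM after NE. The groups were separated by more than 1 CPM, and the rise was 1.64-fold (log2 0.71, SE 0.12, adjusted p = 0.0191). Without NE-table vehicle 1 the log2 value was 0.64 (adjusted p = 0.022). The call ended without NE-table vehicle 2 (0.74, adjusted p = 0.0719) or 3 (0.75, 0.0581) and without NE library 1 (0.66, 0.0748), 2 (0.77, 0.0645) or 3 (0.70, 0.104), and in the fit of all 12 libraries (0.71, 0.0614). DEX libraries held 20.1, 18.4 and 12.5 CPM against 11.6, 14.5 and 11.3 CPM with vehicle. DEX libraries 1 and 2 were above all vehicle libraries and DEX library 3 lay among them, and the change of 0.46 (SE 0.21) did not pass (adjusted p = 0.274). Without DEX library 3 it was 0.64 (adjusted p = 0.00103), and it was also called by DESeq2 (0.45, adjusted p = 0.0445) and without the filter on low counts (0.46, 0.0321). Between the DEX and NE effects the difference was -0.26 (SE 0.25, adjusted p = 0.708).

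NR4A1 (chromosome 12, 52022832 to 52059507, + strand), which encodes NUR77, did not pass in either comparison. NE libraries held 7.48, 7.73 and 7.72 CPM against 6.31, 6.20 and 5.96 CPM with vehicle, a narrow but complete separation. The log2 fold change was 0.31 (SE 0.07, adjusted p = 0.0619), and 0.33 (adjusted p = 0.0646) without NE-table vehicle 1. It was called with the replicate number as a block (0.31, adjusted p = 0.0284) and with the GC and length correction (0.31, 0.0413). The DEX table held 47.9, 45.9 and 40.7 CPM with vehicle and 45.7, 49.9 and 37.1 CPM with DEX. Those groups overlapped, and the log2 fold change was -0.01 (SE 0.11, adjusted p = 0.962). DEX and NE effects on NR4A1 differed by -0.33 (SE 0.15, adjusted p = 0.269). An exon of NR4A1 overlaps AC025259.3, a long non-coding gene on the other strand that is not used here; the strand setting of the counts is not given in the sources used here, so reads from it cannot be told apart from NR4A1 reads.

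The 3 receptors also differed between the vehicle libraries of the 2 tables, by more than either treatment changed them. Mean vehicle levels were 44.8 ± 3.69 CPM (SD, n = 3) in the DEX table and 6.16 ± 0.179 CPM in the NE table for NR4A1, a 7.28-fold gap. NR4A2 stood at 12.5 ± 1.78 and 2.45 ± 0.215 CPM, a 5.08-fold gap, and NR4A3 at 13.5 ± 1.51 and 1.81 ± 0.185 CPM, a 7.42-fold gap. Even after NE, the NR4A3 level of 5.54 ± 0.192 CPM was below every library of the DEX table. Per kilobase of exon, the order in both vehicle sets was NR4A1, NR4A2, NR4A3, at 6.14, 3.14 and 2.13 CPM per kb in the DEX table and 0.844, 0.619 and 0.287 CPM per kb in the NE table. Table, depth and vehicle columns go together here and cannot be told apart, so the gap between tables was not tested.

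Of the feedback genes, SIK1 has to be read together with SIK1B, a near-identical copy. SIK1 lies on chromosome 21 at 43414483 to 43427189 (- strand) and SIK1B on the same chromosome at 6111134 to 6123739 (+ strand). Their longest transcripts, of 4805 and 4705 bases, are 97.8% identical, so the split of reads between the rows is uncertain. The SIK1 row held 12.2% to 25.6% of the joint counts in the DEX table and 9.52% to 23.9% in the NE table. RefSeq treats SIK1B as a synonym of SIK1.

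The summed SIK1 and SIK1B level rose with both agents. In the DEX table it was 7.57, 8.53 and 7.34 CPM with vehicle and 17.1, 15.5 and 12.02 CPM with DEX, with all DEX libraries above all vehicle libraries. DEX raised the sum 1.91-fold (log2 0.94, SE 0.12, adjusted p = 0.000358). In the NE table the sum was 4.41, 4.74 and 4.36 CPM with vehicle and 6.82, 7.03 and 8.34 CPM with NE, again without overlap. NE raised it 1.64-fold (log2 0.72, SE 0.10, adjusted p = 0.00945), and by 0.70 on the log2 scale (adjusted p = 0.00715) without NE-table vehicle 1, a fit added after the data were seen. The effects of the 2 agents on the sum differed by 0.22 (SE 0.18), which did not pass (adjusted p = 0.629).

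Taken alone, the SIK1 row did not pass in either comparison. With DEX it was at 2.34, 1.88 and 1.65 CPM against 1.23, 2.17 and 1.20 CPM with vehicle, which overlap, and changed by 0.38 (SE 0.25, adjusted p = 0.405). With NE it was at 1.39, 1.47 and 1.57 CPM against 0.435, 1.13 and 0.717 CPM, a separation with a log2 value of 0.94 (SE 0.30, adjusted p = 0.188). That value was 0.67 (adjusted p = 0.198) without NE-table vehicle 1 and 0.99 (adjusted p = 0.0194) with the replicate block. The SIK1B row rose 2.06-fold with DEX (log2 1.04, SE 0.12, adjusted p = 6.11e-05) and 1.58-fold with NE (log2 0.66, SE 0.11, adjusted p = 0.021). Its NE value was 0.71 (adjusted p = 0.0108) without NE-table vehicle 1. The SIK1B call after NE ended without NE-table vehicle 2 (0.64, adjusted p = 0.0971) or 3 (0.64, 0.0839) and without NE library 2 (0.71, 0.079) or 3 (0.55, 0.0764).

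**Figure D2:**
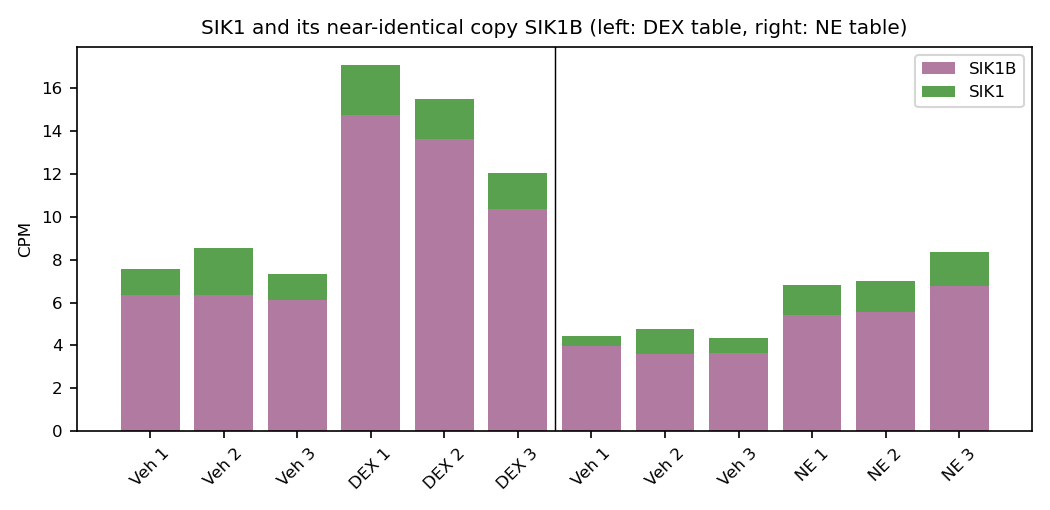
Stacked level of SIK1B and SIK1, in CPM from 0, in each of the 12 libraries, with the DEX table left of the line and the NE table right of it. SIK1B makes up most of each bar, and the 3 DEX bars (12.02 to 17.1 CPM) and the 3 NE bars (6.82 to 8.34 CPM) are taller than the vehicle bars of their own table.

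CREM (chromosome 10, 35126791 to 35212958, + strand) passed in neither comparison, but the effects measured in the 2 tables differed. NE libraries held 27.6, 24.8 and 26.2 CPM against 23.7, 19.1 and 20.9 CPM with vehicle. NE-table vehicle 1 was the highest vehicle library, and the groups did not overlap. The log2 fold change of 0.30 (SE 0.08) did not pass (adjusted p = 0.13), but was 0.39 without NE-table vehicle 1 (adjusted p = 0.00859) and 0.30 with the replicate block (adjusted p = 0.000694). It was also called with the GC and length correction (0.31, adjusted p = 0.0244) and in the fit of all 12 libraries (0.30, 0.023). DEX libraries held 22.3, 22.0 and 23.2 CPM against 26.1, 25.9 and 24.8 CPM with vehicle, and all of them were lower. The DEX value of -0.18 (SE 0.06) did not pass (adjusted p = 0.0673), and passed with upper-quartile scaling (-0.20, adjusted p = 0.0434). For CREM the DEX effect minus the NE effect was -0.49 (SE 0.10, adjusted p = 0.00956), which was called in every alternative run. Counts are of the whole locus and do not separate the repressor isoform from the others, and AL392046.1, an antisense gene with an overlapping exon, is not used here.

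PPARGC1A (chromosome 4, 23755041 to 23904089, - strand), which encodes the co-activator PGC-1alpha, a driver of mitochondrial gene expression, rose with NE from a low level. It was at 0.435, 0.647 and 0.497 CPM in the NE-table vehicle libraries and at 1.26, 1.33 and 1.32 CPM after NE. These are 14 to 47 counts a library in that table, and the groups were well apart. The rise was 2.46-fold (log2 1.30, SE 0.20, adjusted p = 0.0146), and 1.18 on the log2 scale (adjusted p = 0.022) without NE-table vehicle 1. The call ended without NE-table vehicle 3 (1.25, adjusted p = 0.0673) and without NE library 2 (1.28, 0.0879) or 3 (1.28, 0.081). DEX libraries held 1.06, 0.791 and 1.22 CPM against 0.792, 0.688 and 1.08 CPM with vehicle, at 13 to 31 counts a library. They overlapped, and the change of 0.24 (SE 0.28, adjusted p = 0.661) was within its error. The DEX effect minus the NE effect was -1.05 (SE 0.34) and did not pass (adjusted p = 0.093).

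NFIL3 (chromosome 9, 91409045 to 91423862, - strand), a bZIP repressor that competes with the clock-controlled PAR bZIP activators, passed in neither comparison. NE libraries held 14.3, 15.01 and 16.4 CPM against 14.2, 13.6 and 13.4 CPM with vehicle, a narrow separation. The log2 value was 0.15 (SE 0.07, adjusted p = 0.385), 0.17 without NE-table vehicle 1 (adjusted p = 0.285), and it stayed uncalled with the replicate block (adjusted p = 0.164). DEX libraries held 21.5, 20.9 and 19.1 CPM against 20.1, 19.2 and 17.8 CPM, which overlap (0.11, SE 0.07, adjusted p = 0.386). DEX and NE effects on NFIL3 differed by -0.04 (SE 0.10, adjusted p = 0.908).

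**Figure D3:**
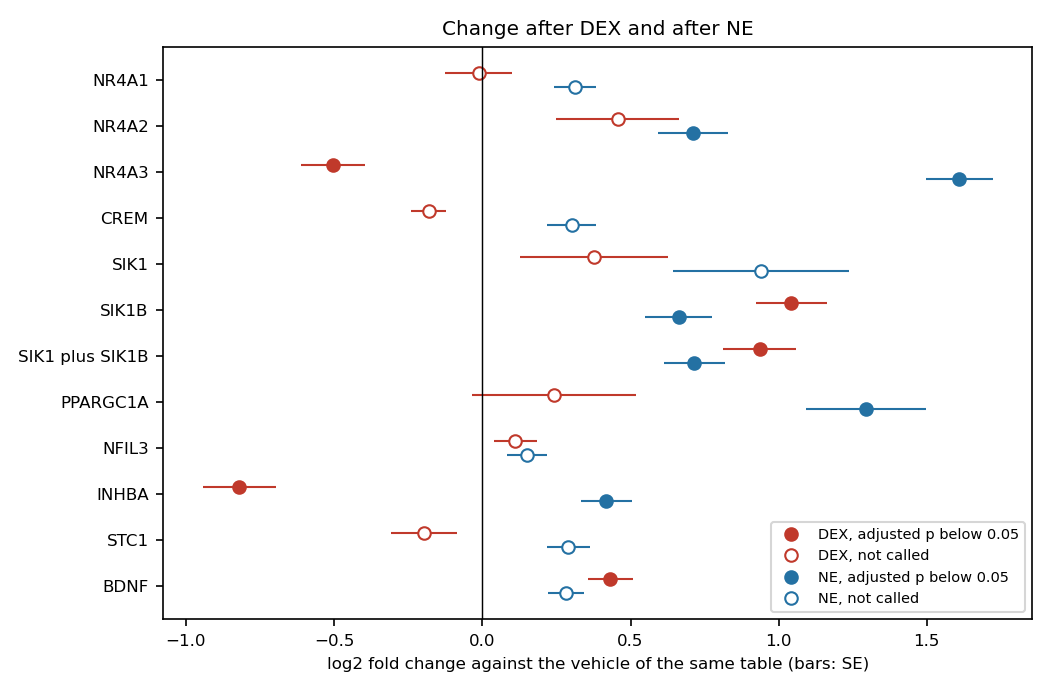
Log2 fold change of each gene after DEX (red) and after NE (blue) against the vehicle of its own table; bars are standard errors and filled points passed at an adjusted p below 0.05. NR4A3 and INHBA have filled points on both sides of 0, SIK1B and the SIK1 sum have filled points to the right for both agents, and NFIL3 has 2 open points near 0.

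The 3 remaining genes encode secreted proteins. INHBA (chromosome 7, 41667168 to 41705834, - strand), the beta A subunit of activin A and inhibin A, was like NR4A3 in moving in opposite directions. It was at 37.7, 39.1 and 31.4 CPM in the DEX-table vehicle libraries and at 21.6, 22.5 and 16.9 CPM after DEX. The highest DEX library was well below the lowest vehicle library, and DEX lowered INHBA 1.77-fold (log2 -0.82, SE 0.12, adjusted p = 0.00466), a call that held in every alternative run. In the NE table INHBA was at 7.27, 6.66 and 6.57 CPM with vehicle and at 10.01, 8.61 and 8.79 CPM with NE. The NE libraries were all higher, by 1.34-fold (log2 0.42, SE 0.09, adjusted p = 0.0441), and by 0.46 on the log2 scale without NE-table vehicle 1 (adjusted p = 0.0193). The NE call ended without NE-table vehicle 2 (0.40, adjusted p = 0.162) or 3 (0.39, 0.153), without NE library 1 (0.35, 0.13), 2 (0.46, 0.123) or 3 (0.44, 0.138), and in the fit of all 12 libraries (0.42, 0.08). For INHBA the DEX effect minus the NE effect was -1.24 (SE 0.16, adjusted p = 0.000273).

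BDNF (chromosome 11, 27654893 to 27722058, - strand), a neurotrophin whose transcription from several promoters responds to CREB in neurons, rose with DEX. It was at 36.9, 36.6 and 36.0 CPM with vehicle and at 53.8, 51.2 and 42.4 CPM with DEX. All DEX libraries were above a tight vehicle group, and the rise was 1.35-fold (log2 0.43, SE 0.08, adjusted p = 0.00291), called in every alternative run. NE libraries held 47.2, 41.5 and 41.2 CPM against 36.4, 34.6 and 35.7 CPM. They were also all higher, but the log2 value of 0.28 (SE 0.06) did not pass (adjusted p = 0.0549). It was 0.30 without NE-table vehicle 1 (adjusted p = 0.0269) and 0.28 with the replicate block (adjusted p = 0.000396), and it was called by DESeq2 (0.28, 0.0108). The effects differed by 0.15 (SE 0.11), which did not pass (adjusted p = 0.591). An exon of BDNF overlaps BDNF-AS on the other strand, which is not used here.

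STC1 (chromosome 8, 23841915 to 23854807, - strand), the secreted glycoprotein stanniocalcin 1, passed in neither comparison. NE libraries held 57.9, 52.2 and 47.5 CPM against 44.8, 41.4 and 42.6 CPM with vehicle, all higher. The log2 value was 0.29 (SE 0.07, adjusted p = 0.0959), 0.32 without NE-table vehicle 1 (adjusted p = 0.0547) and 0.29 with the replicate block (adjusted p = 0.000429), and DESeq2 called it (0.29, adjusted p = 0.0233). DEX libraries held 15.8, 14.4 and 12.4 CPM against 18.0, 17.2 and 13.7 CPM, which overlap (-0.20, SE 0.11, adjusted p = 0.338). Without DEX-table vehicle 3, the lowest vehicle library, STC1 was called lower with DEX (-0.32, adjusted p = 0.0426). The difference between the effects was -0.49 (SE 0.15) and did not pass (adjusted p = 0.0807). It was called with the replicate block (adjusted p = 0.00376), by DESeq2 (0.0292), without DEX-table vehicle 3 (-0.61, 0.0182) and without NE library 3 (-0.55, 0.0477).

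Set side by side, 3 of the 10 genes differed between the DEX and NE effects, NR4A3, CREM and INHBA, and all 3 were lower with DEX relative to NE. Of 15952 genes tested for that difference, 6.01% were called, 3.88% higher and 2.13% lower with DEX relative to NE. These 3 calls were made in every alternative run. DEX and NE were each measured in a table of their own. A difference between the agents therefore cannot be told apart from one between tables, vehicle levels or depth. The median difference over the 10 genes was -0.49 on the log2 scale, beside 0.0016 for all genes. PPARGC1A had the next largest difference that did not pass.

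The vehicle sets of the 2 tables gave different levels for 9 of the 10 genes, in the sense that the 3 libraries of one set did not overlap the 3 of the other, as held for 56.2% of 15952 genes. Means were more than 2-fold apart for 6 of the 10, against 8.53% of genes, and for 5 with plain library sizes, where SIK1 was 1.93-fold apart. INHBA was 5.28-fold and SIK1 2.01-fold (1.73-fold when summed with SIK1B) higher in the DEX-table vehicle, while STC1 was 2.63-fold higher in the NE-table vehicle. PPARGC1A (1.62-fold), NFIL3 (1.39-fold) and CREM (1.20-fold) were also higher in the DEX table, and BDNF overlapped at 36.5 ± 0.493 and 35.5 ± 0.912 CPM (SD, n = 3). Per kilobase of exon, NFIL3 was the most abundant of the 10 in the DEX-table vehicle (9.13 CPM per kb) and STC1 in the NE-table vehicle (10.3 CPM per kb), and PPARGC1A was the least in both (0.0785 and 0.0484 CPM per kb). The rank of NFIL3 depends on the length used. The union of exons is 5699 bases for CREM, whose longest transcript has 2306, and 2085 bases for NFIL3 by either measure. The mean INHBA level with DEX, 20.3 ± 3.03 CPM, was still above the mean with NE, 9.13 ± 0.761 CPM. Treated groups were not tested across the tables.

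**Figure D4:**
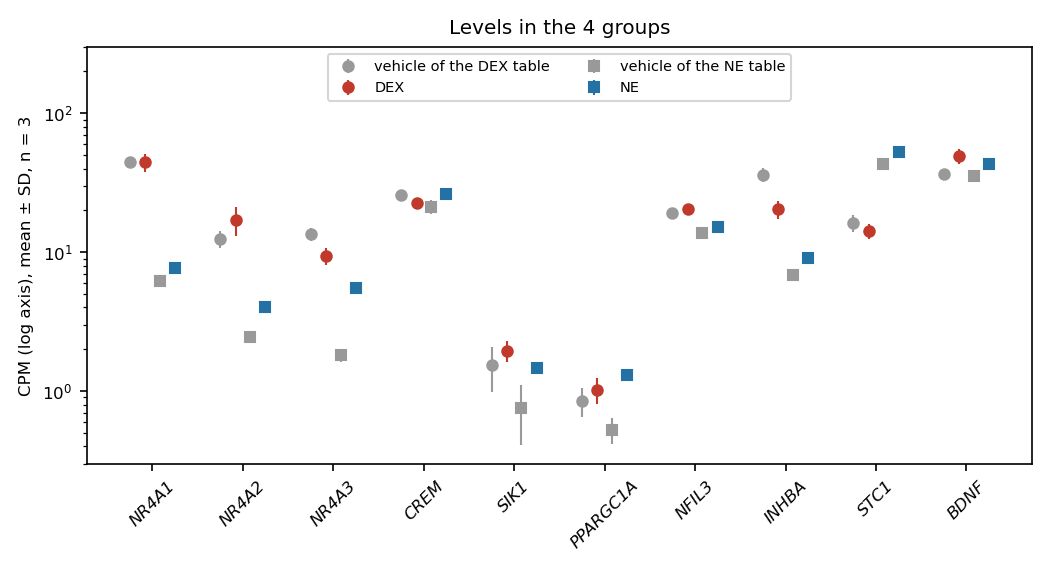
Mean level of the 10 genes in the 4 groups, in CPM on a log axis, with SD over 3 libraries; circles are the DEX table and squares the NE table, and grey marks the vehicle groups. The NR4A receptors and INHBA are higher in the circles than in the squares, STC1 is higher in the squares, and BDNF, CREM and NFIL3 lie close together in all 4 groups.

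Correlations among the 10 genes within the tables were mostly positive. With each gene centred on its mean within each table, 44 of the 45 pairs had a Pearson correlation above 0 over the 12 libraries, and 13 pairs reached 0.7. The highest value was 0.87 for NR4A2 with BDNF, followed by 0.85 for NR4A3 with CREM. INHBA with BDNF was the 1 pair below 0, at -0.28. These values are descriptions: all pairs share the same libraries, and the treatments contribute to them. All 10 genes had every NE library above every vehicle library of that table, which by itself makes for positive values. The same count was not made for other gene pairs, so it is not shown to be particular to these genes.

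Genes around the pathway were counted from lists of related genes, which were also chosen with earlier results of these data known. Among all genes tested, 1.48% were called higher and 1.34% lower with NE, and 6.66% and 3.46% with DEX. With the replicate block, 5.07% were called higher with NE. Of 27 tested CREB targets other than the 10 genes, 12 rose and 2 fell with NE, with a list median of 0.54 on the log2 scale; of 25 tested, 11 rose and 2 fell with DEX, with a median of 0.30. NE raised the G protein regulator RGS16 4.02-fold, the phosphodiesterase PDE10A 3.53-fold, the cAMP phosphodiesterase PDE4D 2.30-fold and the synaptic immediate early gene ARC 2.23-fold (adjusted p = 0.0411, 0.00898, 2.41e-05 and 0.0141). RGS16 and PDE10A did not meet the filter at 1 CPM in 3 libraries of the NE table, so their folds rest on low counts. DEX raised the clock gene PER1 4.85-fold, the G protein regulator RGS2 3.50-fold, PDE4D 2.02-fold and the co-regulator CITED2 1.90-fold (adjusted p = 4.08e-11, 2.21e-09, 0.00013 and 4.3e-09). PDE4D thus rose with both agents, at 1.20 and 1.01 on the log2 scale for NE and DEX, and the difference of -0.19 did not pass (SE 0.12, adjusted p = 0.52). ARC, PDE10A and RGS16 lost their NE call without at least 1 library, at adjusted p of 0.0652 to 0.0887 for ARC without NE-table vehicle 3, NE 2 or NE 3, 0.0547 to 0.0625 for PDE10A without NE-table vehicle 2, NE 2 or NE 3, and 0.128 to 0.164 for RGS16 without NE-table vehicle 3, NE 1, NE 2 or NE 3. Without NE-table vehicle 1 the NE values were 1.73 for RGS16, 1.73 for PDE10A, 1.19 for PDE4D and 1.09 for ARC (adjusted p = 0.0447, 0.0156, 2.02e-06 and 0.021), with 14 list genes higher and 2 lower; the replicate block called 17 higher and 4 lower. With 1 library left out, the count of risers ran from 6 to 14 with NE and from 9 to 14 with DEX. Whether CREB or the glucocorticoid receptor acted on the list genes was not tested.

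With NE 2.82% and with DEX 10.1% of all genes tested were called, and a short list holds few calls at such shares. Upstream of CREB, the 27 tested genes for G proteins, adenylyl cyclases, protein kinase A subunits, CREB and its co-activators were mostly not called. None was called with NE by edgeR, with 2 at an unadjusted p below 0.05, 1 called by DESeq2, 1 without NE-table vehicle 1 and 4, all higher, with the replicate block. With DEX 3 rose and 1 fell: the salt-inducible kinase SIK2 rose 1.36-fold (adjusted p = 6.09e-05), the CREB co-activator CRTC3 1.15-fold (0.0245) and the protein kinase A inhibitor PKIG 1.16-fold (0.0393), and PKIA, another inhibitor of that kinase, fell (log2 -0.43, adjusted p = 0.00112). CRTC3 lost its call without DEX-table vehicle 1 or 2 or DEX 1 or 2 (adjusted p = 0.0657 to 0.115) and PKIG without any 1 of the vehicle libraries or DEX 2 or 3 (0.0739 to 0.184). DESeq2 called neither (CRTC3 0.0513, PKIG 0.117) and so called 1 of the list higher with DEX, and neither was called with the replicate block (0.0871 and 0.102). PKIG was not called with upper-quartile scaling (0.069), nor CRTC3 in the fit of all 12 libraries (0.0793). Among 7 tested NR4A partners and nuclear receptor co-regulators, DEX raised the co-activators NCOA1 1.39-fold (adjusted p = 2.44e-05) and NCOA3 1.31-fold (0.0102). NCOA3 lost its call without DEX 1 (0.0567). None of the 7 was called with NE by edgeR, none had an unadjusted p below 0.05, and DESeq2, the replicate block and the fit without NE-table vehicle 1 called none.

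**Figure D5:**
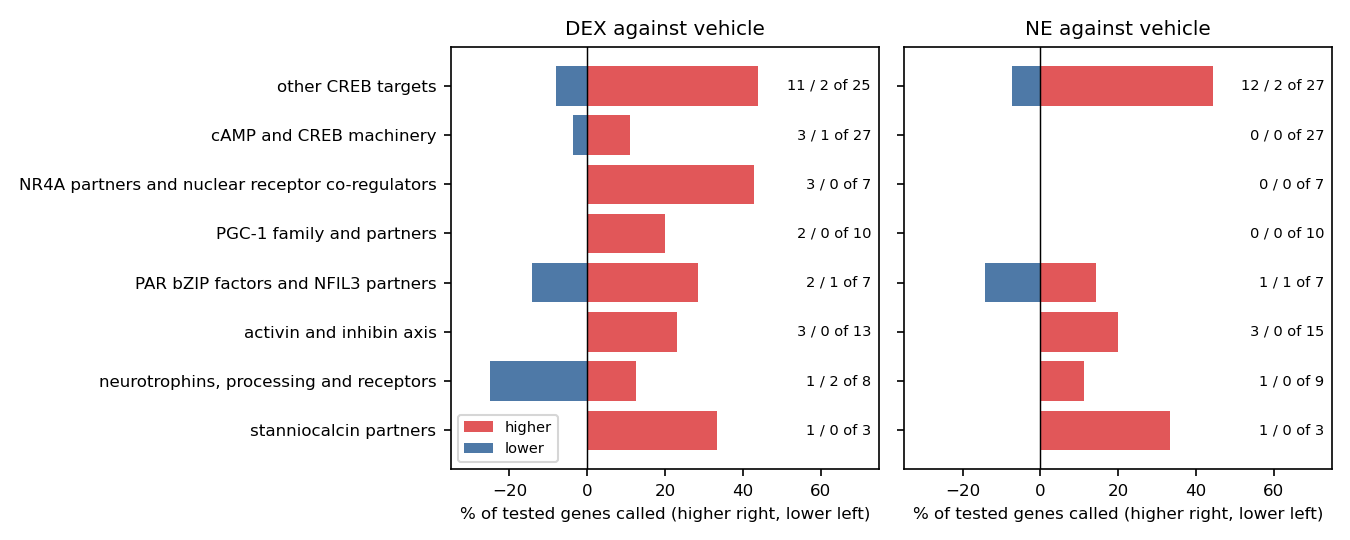
Share of the tested genes in each list of related genes that were called higher (red, right of 0) or lower (blue, left of 0) after DEX and after NE, in percent; the text in each row gives higher / lower of tested. The other CREB targets have the longest bars in both panels, at 11 and 12 called higher, and the lists for the cAMP machinery, NR4A partners and the PGC-1 family have no bar after NE. Of all genes tested, 6.66% were called higher and 3.46% lower after DEX, and 1.48% and 1.34% after NE.

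Around PPARGC1A, 2 of 10 tested PGC-1 family members and partners rose with DEX: the adipogenic nuclear receptor PPARG 1.24-fold (adjusted p = 0.0234) and the related co-activator PPRC1 1.19-fold (0.00503). For scale, 10.1% of all genes tested were called with DEX, 6.66% of them all as higher, and 2.82% were called with NE. PPARG lost its call without DEX-table vehicle 2 or 3 or DEX 1 (0.0654 to 0.112) and with DESeq2 (0.0827). None of these 10 was called with NE by edgeR or DESeq2, none without NE-table vehicle 1, and none had an unadjusted p below 0.05; with the replicate block 1 was called lower. Around NFIL3, 7 PAR bZIP and clock-linked partners were tested. DEX lowered the repressor BHLHE40 (-0.61, adjusted p = 4.57e-06) and raised its relative BHLHE41 (0.29, 0.0167) and the activator TEF (0.33, 0.0103), whereas NE raised the repressor receptor NR1D1 1.51-fold (0.0206) and lowered BHLHE41 (-0.27, 0.0371). BHLHE41 lost its DEX call without DEX-table vehicle 2 or DEX 1 (0.0718 to 0.0994) and its NE call without any library except NE-table vehicle 1 (0.101 to 0.19), and NR1D1 lost its call without NE-table vehicle 3, NE 2 or NE 3 (0.0715 to 0.123). DESeq2 called neither TEF (0.0682) nor BHLHE41 (0.0598) with DEX. Without NE-table vehicle 1 the NE values were 0.57 for NR1D1 and -0.28 for BHLHE41 (0.0164 and 0.0252).

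Around INHBA, NE raised 3 of 15 tested genes of the activin and inhibin axis. Among all genes tested, 1.48% were called higher with NE and 6.66% with DEX. The inhibin beta B subunit INHBB rose 2.75-fold (adjusted p = 0.0249), and the activin-binding antagonists FST and FSTL3 rose 1.42-fold (0.0413) and 1.31-fold (0.0118). INHBB did not meet the filter at 1 CPM in 3 libraries of the NE table, so its fold rests on low counts. DEX raised 3 of 13: FSTL3 1.84-fold (9.28e-08), the inhibin co-receptor TGFBR3 1.38-fold (5.95e-05) and the activin type I receptor ACVR1B 1.17-fold (0.00779). With 1 NE-table library left out, INHBB (1.65, 0.0126) and FST (0.60, 0.00658) kept their call only without NE-table vehicle 1 (0.0691 to 0.135 and 0.0994 to 0.144 otherwise), and FSTL3 lost its NE call without NE-table vehicle 2 or 3 or NE 2 or 3 (0.0547 to 0.082) and was at 0.41 (0.00454) without NE-table vehicle 1. FST was also not called in the fit of all 12 libraries (0.0767). ACVR1B lost its call without DEX-table vehicle 2 (0.0553).

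Around BDNF and STC1, the changes were few in short lists, where 10.1% of all genes tested were called with DEX and 2.82% with NE. Of 8 neurotrophins, their processing proteins and receptors tested with DEX, the neurotrophin-3 receptor NTRK3 fell (-0.61, adjusted p = 0.000134) and the sorting receptor SORT1 rose 1.33-fold (2.66e-05). Of 9 tested with NE, the low-affinity neurotrophin receptor NGFR rose 1.79-fold (0.0155), a call lost without NE-table vehicle 2 or 3 or NE 2 or 3 (0.0631 to 0.0936) and at 0.89 (0.00642) without NE-table vehicle 1. Of 3 stanniocalcin partners, PAPPA, a protease that stanniocalcins inhibit, rose 1.63-fold with DEX (0.000245), and STC2, the paralogue of STC1, rose 1.27-fold with NE (0.00939). STC2 lost its call without NE-table vehicle 3, NE 2 or NE 3 (0.052 to 0.0786) and was at 0.34 (0.00346) without NE-table vehicle 1.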

How the data were processed

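RNA sequencing of immortalized human trabecular meshwork cells was analysed from 2 tables of expected counts per gene that the authors deposited. The values themselves gave the unit: 49.3% to 55.6% of those above 0 in a library were not whole. How reads were aligned, to which build, how they were counted and with which strand setting is not given in the sources used here. Expected counts were rounded, a change of at most 0.000613% in a library total. Symbols came from a table of gene identifiers (29235) and from GENCODE 29 on GRCh38 (another 5385), and positions from GENCODE 29.

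Genes were filtered with filterByExpr, normalized by TMM and tested with edgeR 4.0.16 (R 4.3.3), by its robust two-sided quasi-likelihood test with Benjamini-Hochberg adjustment over all genes of a comparison. Adjusted p-values come from it wherever no tool is named, and 0.05 was the threshold. The standard error is the log2 fold change over the square root of F. Levels are CPM with TMM-adjusted library sizes over all 12 libraries, and exon lengths for levels per kb are the union of GENCODE exons. Alternatives were DESeq2 1.42.0, upper-quartile scaling, no filter, a filter at 1 CPM in 3 libraries, the replicate number as a block, SIK1 and SIK1B summed, a fit of all 12 libraries, GC and length offsets (mgcv 1.9.3, 96.2% of tested genes with a value), each library left out and, for the vehicle sets, plain library sizes. SIK1 and SIK1B summed without NE-table vehicle 1 was added after the data were seen. The steps were tested on simulated data. False calls made up 12.7% of calls in the DEX comparison, well above the share that the threshold sets, and 5.52% in the NE comparison, slightly above it.

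Vehicle columns of the NE table carry numbers in their names alone. Deviations from group means correlated between same-numbered vehicle and NE columns at 0.52, 0.16 and 0.28, so those numbers were taken to pair the libraries. However, vehicle 2 correlated with NE 3 at 0.18 and vehicle 3 with NE 2 at 0.17, so the pairing of those libraries is uncertain. In the DEX table the same-number values were -0.16, 0.07 and -0.16, and the numbers did not pair. The members and lists were chosen with earlier results of these data known, so neither is independent of them. Named genes are the 10 members, SIK1B, up to 4 called genes of each list with the largest change in each comparison, and the 3 genes most correlated with each NR4A receptor; a few genes that the rule names are not reported here. Promoter sequences are from RefSeq.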

Additional observations from a re-analysis of the deposited data

Results flagged for a closer look

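Genes were singled out where the DEX effect and the NE effect differed in the fit of all 12 libraries (edgeR, adjusted p below 0.05). Values are log2, DEX effect minus NE effect, and higher or lower below refers to that difference. Among the 10 genes these were NR4A3 (-2.12), INHBA (-1.24) and CREM (-0.49). NR4A3 and INHBA were called lower with DEX and higher with NE, and CREM was called in neither comparison on its own. In these differences, agent and table cannot be told apart.

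Of the listed CREB targets and cAMP genes named above, the DEX effect was above the NE effect for PER1 (1.35) and RGS2 (0.91), and below it for ARC (-1.58) and PKIA (-0.44). IRS2, an insulin receptor substrate gene, also differed (1.12). In the NR4A partner and PGC-1 lists NCOA1 (0.45), PPARG (0.41) and PPRC1 (0.39) were higher. Among NFIL3 partners BHLHE41 was higher (0.56), and NR1D1 (-0.86) and BHLHE40 (-0.47) lower. In the activin axis INHBB (-1.43) and FST (-1.11) were lower, as INHBA was, and TGFBR3 (0.52) and FSTL3 (0.49) higher. NTRK3 (-0.90, adjusted p = 0.04999) and STC2 (-0.34) were lower, and SORT1 (0.63) and PAPPA (0.63) higher.

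NTRK3 was not called by DESeq2 (0.0547) or with the replicate block (0.0528), and PAPPA not with upper-quartile scaling (0.0601). ARC lost this call without DEX-table vehicle 3 (-1.37, adjusted p = 0.0813). NTRK3 lost it without any library except NE-table vehicle 1, PAPPA in 9, PPRC1 in 7, STC2 in 7 and PPARG in 5 of the 12 fits that left out 1 library, at adjusted p of 0.0537 to 0.219.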

How the results depend on the processing

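With NE, 441 genes and 4 of the 10 members were called, and 5 members with SIK1 and SIK1B summed. The replicate block called 1688 genes and 9 members (all but NFIL3), the GC and length correction 827 and 7, both together 2167 and 9, and the fit of all 12 libraries 701. With 1 library left out the NE counts ran from 150 to 658 genes and from 1 to 6 members, and 7 members with SIK1 and SIK1B summed and NE-table vehicle 1 left out. The lowest count, 150, was without NE 2; the others were 160 without NE 3, 210 and 217 without NE-table vehicles 3 and 2, and 275 without NE 1. DEX counts ran from 982 (without DEX-table vehicle 2; 994 without DEX 2) to 1835 genes and from 2 to 4 members, and those of the difference from 721 to 1243 genes and from 3 to 4 members. The split of DEX calls was 1008 higher and 524 lower, and 1082 and 886 with the GC and length correction. The replicate block changed no member's DEX call. Some signs turned: the SIK1 difference between effects was 0.22 when summed with SIK1B, NR4A1 with DEX ran from -0.11 to 0.10 over the fits without 1 library, and the NFIL3 difference from -0.092 to 0.021. The cause was not tested.

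Among the members, PPARGC1A and SIK1 had the fewest counts, 13 to 56 a library, which limits their precision. Of the list genes, RGS16, PDE10A and INHBB were also low in the NE table. The vehicle columns of the NE table could not be matched to labelled samples.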

Other observations

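The genes whose levels followed each NR4A receptor most closely were found over the 12 libraries, with each gene centred on its mean within its table, among 12222 genes. For NR4A3 they were SCG2 (secretogranin II), the phosphodiesterase gene PDE3A and the amino acid transporter gene SLC7A5, at Pearson correlations of 0.97, 0.97 and 0.96. NE raised all 3, by 0.68, 0.71 and 0.58 on the log2 scale (edgeR, adjusted p = 0.000346, 0.000373 and 0.000515), and by 0.70, 0.69 and 0.55 without NE-table vehicle 1. With DEX PDE3A was called lower (-0.27, adjusted p = 0.0265), a call that ended with DESeq2 (0.0622), with the replicate block (0.0635) and without DEX-table vehicle 2 or 3 or DEX 2 or 3 (0.0507 to 0.126). SCG2 (-0.25, adjusted p = 0.126) and SLC7A5 (-0.10, 0.192) were not called with DEX. Having been chosen for following NR4A3, these genes give no independent support to its changes. NR4A2 was followed by WWC1 (0.94), called higher with NE (log2 0.40, adjusted p = 0.00536) and with DEX (0.21, 0.0359; 0.0525 to 0.155 in the settings where the DEX call ended), the pseudogene AGAP12P (0.94) and the transferrin receptor gene TFRC (0.93), and NR4A1 by the kinase gene CLK3 (0.90), LRRN3 (0.88) and MAGED1 (0.87). The correlations share libraries and treatments and are given as a description.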
